A study of Mus musculus with 8 samples.

Results

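The solute carriers are a large set of membrane transporters, and 220 of their genes were followed here across 8 pooled mouse tissue samples. The members were selected on array signal: a probe had to carry exactly 1 platform symbol of the Slc pattern and to reach the 40th percentile of probe means in liver or in hypothalamus. Slc10a1, Slc27a5 and Slc32a1 were left out by the rule. Of 269 genes of this pattern on the array, 3 were left out, 46 stayed under both levels and 220 passed, represented by 1 probe each, out of 33012 probes on the array and 13840 genes named by a probe with 1 symbol. The liver level (9.04 on the log2 intensity scale) was reached by 177 members and the hypothalamus level (9.26) by 180. Both levels were reached by 137 members, 40 passed in liver alone and 43 in hypothalamus alone. Just inside the threshold lay Slc7a15, Slc12a8 and Slc25a35, by 0.0015, 0.03 and 0.04 log2 units, and just outside lay Slc4a3, Slc10a3 and Slc5a5, by -0.0076, -0.03 and -0.06. Because the rule used levels in the 2 tissues, the liver and hypothalamus levels below are descriptions with no test, while strain and diet were not used by it. For 4 members (Slc4a1ap, Slc7a6os, Slc9a3r1 and Slc9a3r2) the symbol only derives from a carrier's name, and they are counted apart.

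All samples were RNA from male mice on a B6 background. The congenic mice were of the homozygous B6.CAST-17 strain, in which the labels place a donor segment of strain CAST on chromosome 17, and the B6 mice were wild-type C57BL/6J. Each strain was sampled on a 2-choice regime (a carbohydrate/protein against a fat/protein diet, each 78% of the main macronutrient and 22% protein, for 24 h) and on chow. Age is not given in the labels. From 20 to 25 animals of each strain screened over 10 days, those with the most extreme self-selected intake were taken, spent 6 wk on chow, and met the choice again. Every array held 1 pool of 6 mice, so liver and hypothalamus each had 4 arrays (congenic 2-choice, congenic chow, B6 2-choice, B6 chow) and no group had a replicate. Standard errors and p-values therefore come from models that borrow their spread across strain, diet and tissue, and mouse-to-mouse variation was not measured.

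Solute carriers move sugars, amino acids, metals, vitamins, ions and metabolites across plasma, mitochondrial, vesicular and lysosomal membranes, driven by gradients rather than by direct use of ATP. In liver they take up nutrients and bile acids from portal blood and connect cytosolic with mitochondrial metabolism. In the hypothalamus they clear and package neurotransmitters, set chloride gradients in neurons and supply glucose and amino acids across the blood-brain barrier.

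The members' promoters were described first, since the members differed most by tissue. The RefSeq promoter table (build GRCm38.p6, windows of 300 bases around a start) held 176 of the 220 members. A promoter of each of 4 members is printed as an example of differing CG content, with each CG dinucleotide in capitals. Slc2a2 and Slc25a13 were high in liver, and Slc25a12 and Slc6a11 were high in hypothalamus. Slc25a13 and Slc25a12 encode sister proteins of the same transport reaction.
Slc2a2 (chr3:28697653-28697952, plus strand): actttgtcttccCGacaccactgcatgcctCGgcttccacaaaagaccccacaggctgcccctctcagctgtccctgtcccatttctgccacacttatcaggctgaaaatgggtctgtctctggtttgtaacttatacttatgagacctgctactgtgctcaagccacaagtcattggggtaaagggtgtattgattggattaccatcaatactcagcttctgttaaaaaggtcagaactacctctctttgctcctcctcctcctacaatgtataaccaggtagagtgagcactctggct
Slc25a13 (chr6:6217124-6217423, minus strand): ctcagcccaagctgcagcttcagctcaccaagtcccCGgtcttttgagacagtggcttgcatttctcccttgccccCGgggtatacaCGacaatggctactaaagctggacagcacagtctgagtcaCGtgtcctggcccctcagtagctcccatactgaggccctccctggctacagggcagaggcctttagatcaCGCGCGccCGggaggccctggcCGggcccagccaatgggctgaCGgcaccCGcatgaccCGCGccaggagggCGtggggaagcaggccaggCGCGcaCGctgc
Slc25a12 (chr2:71367706-71368005, minus strand): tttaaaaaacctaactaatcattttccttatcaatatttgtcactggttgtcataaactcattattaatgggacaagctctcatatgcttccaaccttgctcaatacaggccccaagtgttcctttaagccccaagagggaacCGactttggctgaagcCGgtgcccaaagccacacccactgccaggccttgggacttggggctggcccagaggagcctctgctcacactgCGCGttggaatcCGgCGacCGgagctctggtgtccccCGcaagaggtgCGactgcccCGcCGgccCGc
Slc6a11 (chr6:114130991-114131290, plus strand): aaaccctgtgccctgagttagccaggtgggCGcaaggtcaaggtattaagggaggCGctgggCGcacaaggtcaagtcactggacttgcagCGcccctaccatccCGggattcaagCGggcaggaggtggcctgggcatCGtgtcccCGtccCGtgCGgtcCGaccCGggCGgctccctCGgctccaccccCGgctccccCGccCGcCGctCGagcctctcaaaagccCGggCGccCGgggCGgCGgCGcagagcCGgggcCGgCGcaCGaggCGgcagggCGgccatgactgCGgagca
The Slc2a2 promoter held 2 CG pairs in 300 bases, with an observed to expected CG ratio of 0.121, whereas that of Slc6a11 held 32, with a ratio of 0.815. Slc25a13 (17 pairs, ratio 0.54) and Slc25a12 (12 pairs, ratio 0.553) lay between them and close to each other. The highest ratio of any listed promoter was taken for each gene. Its median was 0.48 over the 26 matched members that were at least 4-fold higher in liver in all 4 pairs (defined below), 0.604 over the 16 matched members at least 4-fold lower there, 0.63 over all matched members and 0.415 over the 27025 genes of the table. A set of 4 short motifs was searched on both strands, with overlaps between motifs allowed. The GC box, GGGCGG, occurred in promoters of 50% of the matched members high in liver and 68.8% of those high in hypothalamus. It occurred in 64.8% of all matched members and 38.2% of all genes. The E-box, CACGTG, occurred in 26.9% and 18.8% of the same groups, against 8.09% of all genes, and in 17% of all matched members. The TATA box, TATAAA, occurred in 19.2% and 25%, against 15.7%. The HNF1 half-site, GTTAAT, occurred in 7.69% and 0%, against 8.24%. Over all 32851 promoters rather than genes, 35.7% held the GC box, 7.15% the E-box, 13.6% the TATA box and 7.1% the HNF1 half-site. A match describes letters in the window, and these shares were not tested.

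The arrays limit what can be read. The deposited arrays came in 4 separately scaled pairs, with a median intensity of about 702 in the 2 liver 2-choice arrays, 700 in the 2 liver chow arrays, 1338 in the hypothalamus 2-choice arrays and 560 in the hypothalamus chow arrays. Each strain comparison therefore stays within a scaled pair, but diet and scaling cannot be told apart, and every level set across tissues or diets crosses separately scaled sets. Values below are log2 intensities after quantile normalization of the 4 arrays of a tissue. The hypothalamus chow pair stood apart: its 2 strains correlated at 0.895 over all probes, against 0.941 to 0.960 in the other pairs, and the free-text description of its congenic sample names the B6 strain, while the strain field names the congenic one. The free text of every liver sample says hypothalamus, that of the chow livers says 2-choice and that of the B6 2-choice liver names the congenic strain, so groups were taken from the tissue, strain and diet fields. Defining genes followed the tissue labels: Alb stood at 20.07 to 21.40 in liver and 8.75 to 11.42 in hypothalamus, and Gad1 at 7.93 to 9.36 in liver and 17.17 to 17.66 in hypothalamus. Among the measured hepatocyte, neuron, hypothalamic peptide, astrocyte and oligodendrocyte genes, the exceptions were Snap25 and Aldh1l1. Snap25 was dim in every array. Aldh1l1, an astrocyte marker that hepatocytes also express, was brighter in liver. Of the choroid plexus genes, Aqp1 was brighter in liver (15.84 to 16.65, against 7.90 to 9.35 in hypothalamus). The pituitary gene Lhb and several others of these last kinds overlapped between the tissues. Fewer cells of a type and less RNA per cell cannot be told apart in any result below.

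Tissue separated the members widely, in both directions and in most substrate classes. Liver levels exceeded hypothalamus levels at least 4-fold in all 4 matched pairs for 34 members (15.5%), and fell at least 4-fold below them for 20 (9.09%). Over the 24148 probes above the level in either tissue, the same shares were 6.19% and 7.28%. The rule chose members for being bright in at least 1 tissue, so nothing is read from this difference in shares. The median difference was 0.24 over the members and -0.04 over those probes.

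**Figure D1:**
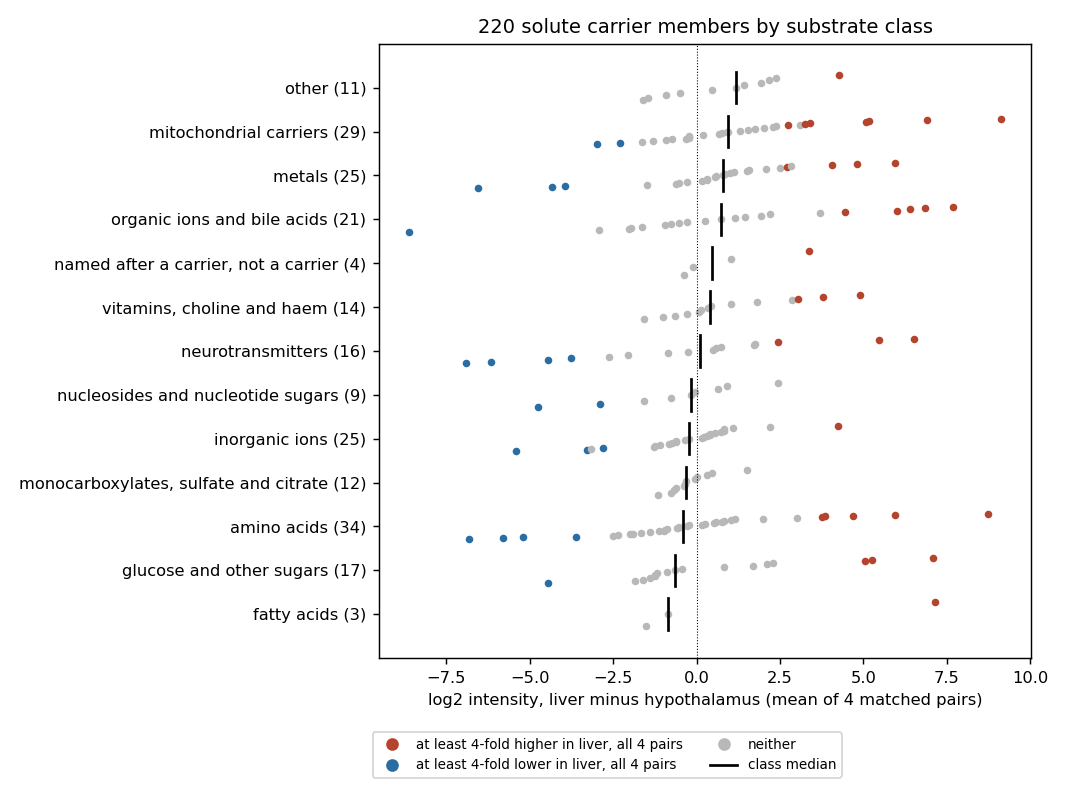
Difference in log2 intensity (x axis, liver minus hypothalamus, mean of 4 matched pairs) of each of the 220 members, grouped by substrate class (y axis, number of members in brackets). Each point is 1 gene and the bar is the class median; 34 members were at least 4-fold higher in liver in all 4 pairs and 20 at least 4-fold lower, and the monocarboxylate, sulfate and citrate class had none of either.

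Among sugar carriers, 3 of 17 members were at least 4-fold higher in liver in all 4 pairs and 1 was lower. Slc2a2, the GLUT2 glucose transporter of hepatocytes, was at 16.12 in the congenic 2-choice, 15.80 in the congenic chow, 16.14 in the B6 2-choice and 16.63 in the B6 chow liver pool, against 8.66, 9.34, 9.43 and 8.93 in the matching hypothalamus pools. The groups did not overlap, and the hypothalamus values lay near the level that separates dim from bright probes. Slc37a4, which carries glucose 6-phosphate into the endoplasmic reticulum for glucose release, differed by 5.06 ± 0.42, and Slc2a9, a urate transporter of the same fold as the glucose carriers, by 5.25 ± 0.59. Slc2a6, a glucose transporter relative of lysosomes, went the other way, at 8.98 to 10.06 in liver and 13.13 to 14.36 in hypothalamus. Slc2a1, the GLUT1 carrier of the blood-brain barrier, was lower in liver in all 4 pairs (-1.84 ± 0.82) without reaching 4-fold in each, and Slc2a3, the neuronal GLUT3, differed by -1.25 ± 2.05 with pairs on both sides of 0.

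Amino acid carriers, the largest class with 34 members, held 5 that were at least 4-fold higher in liver and 4 that were lower. Slc38a4, a neutral amino acid transporter of liver, was at 18.71 in the congenic 2-choice, 19.29 in the congenic chow, 19.42 in the B6 2-choice and 19.44 in the B6 chow liver pool, against 9.43, 11.59, 9.77 and 11.15 in the matching hypothalamus pools. It was bright in every liver array and far dimmer in every hypothalamus array. Slc38a3, a glutamine transporter, stood at 17.33 to 17.82 in liver and 10.94 to 11.95 in hypothalamus, and Slc7a2, a cationic amino acid transporter, at 13.23 to 13.84 in liver and 8.52 to 9.17 in hypothalamus. Its brain relative Slc7a3 showed the reverse, at 7.66 to 8.78 in liver and 14.83 to 15.54 in hypothalamus. Slc6a15 (neutral amino acids) and Slc7a10 (small neutral amino acids including D-serine) were also lower in liver, with differences of -5.79 ± 0.84 and -5.21 ± 0.40. The 2 cationic carriers Slc7a2 and Slc7a3 thus divided between the tissues with no overlap in either.

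Neurotransmitter carriers split almost evenly, with 3 of 16 at least 4-fold higher in liver and 4 lower. Slc6a11, the GAT3 GABA transporter of astrocytes, was at 8.78 in the congenic 2-choice, 7.52 in the congenic chow, 11.002 in the B6 2-choice and 8.33 in the B6 chow liver pool, against 15.72, 15.87, 16.05 and 15.57 in the matching hypothalamus pools. Its liver value in the B6 2-choice pool was well above the other 3 liver pools and still far below every hypothalamus pool. Slc17a6, the vesicular glutamate transporter VGLUT2, was at 8.31 to 10.31 in liver and 15.07 to 15.23 in hypothalamus. Slc1a3, the astrocytic glutamate transporter GLAST, and Slc1a1, the neuronal EAAC1, were lower in liver, with differences of -4.45 ± 0.96 and -3.77 ± 0.25. The peripheral GABA and betaine carriers ran the other way: Slc6a12 (BGT1) was at 15.37 to 15.57 in liver and 8.17 to 9.80 in hypothalamus, and Slc6a13 (GAT2) was higher in liver by 5.46 ± 1.08. Slc1a2, the glutamate transporter GLT-1 that is abundant in brain astrocytes, was brighter in liver than in hypothalamus in all 4 pairs on this probe, at 13.55 to 14.53 in liver and 11.11 to 11.73 in hypothalamus.

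Mitochondrial carriers leaned to liver, with 7 of 29 at least 4-fold higher, 2 lower and a median difference of 0.95. Slc25a47, a carrier enriched in liver, was at 19.11 in the congenic 2-choice, 18.53 in the congenic chow, 18.89 in the B6 2-choice and 18.89 in the B6 chow liver pool, against 10.33, 8.78, 10.20 and 9.59 in the matching hypothalamus pools. No other member differed by more. The aspartate-glutamate carriers whose promoters are printed above divided by tissue: Slc25a13 (citrin) was at 17.10 in the congenic 2-choice, 16.86 in the congenic chow, 17.09 in the B6 2-choice and 16.99 in the B6 chow liver pool, against 10.71, 9.06, 10.83 and 9.88 in the matching hypothalamus pools, and Slc25a12 (aralar) was at 14.21 in the congenic 2-choice, 13.99 in the congenic chow, 14.14 in the B6 2-choice and 13.88 in the B6 chow liver pool, against 16.29, 16.52, 16.25 and 16.27 in the matching hypothalamus pools. Neither gene's tissues overlapped. Slc25a12 was bright in liver as well, and its difference of -2.28 ± 0.22 was modest beside the 6.89 ± 0.72 of Slc25a13. Slc25a20, the carnitine-acylcarnitine carrier of fatty acid oxidation, was higher in liver by 5.17 ± 1.71, and Slc25a14, an uncoupling protein relative of brain, was lower, with a difference of -2.97 ± 0.45. Slc25a1, the citrate carrier, stood at 16.35 to 16.64 in liver and 13.42 to 13.98 in hypothalamus.

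**Figure D2:**
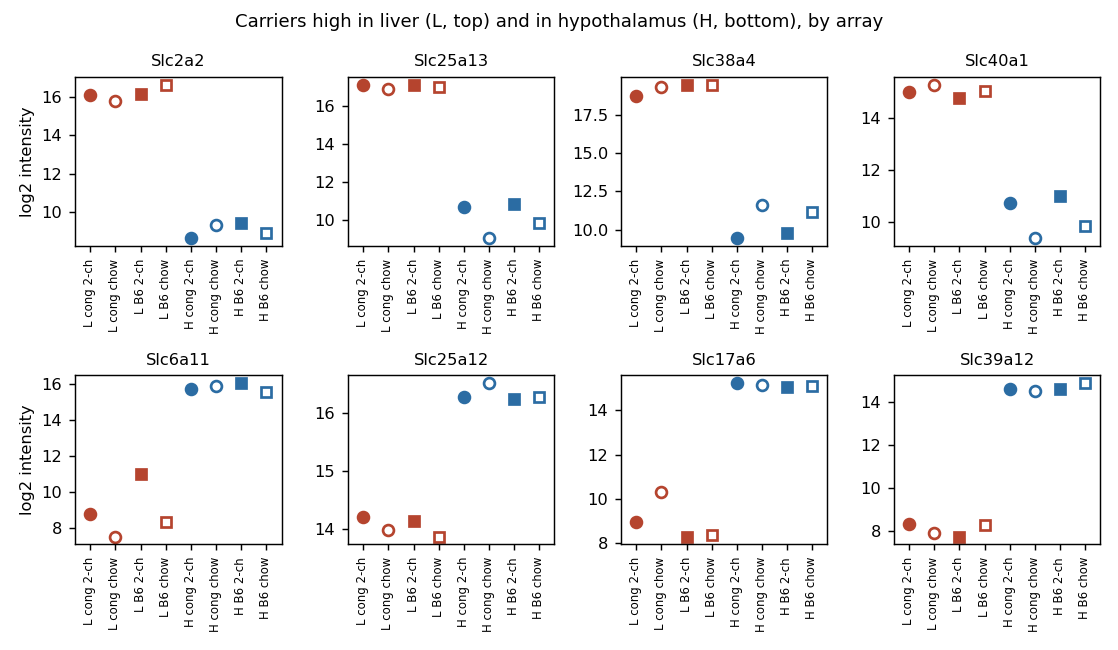
Log2 intensity (y axis, a separate scale for each gene) of 8 members in the 8 arrays (x axis; L liver, H hypothalamus, cong congenic, 2-ch 2-choice). Circles are congenic and squares B6 pools, filled symbols 2-choice and open symbols chow; the liver and hypothalamus values of each gene do not overlap, with Slc2a2 at 15.80 to 16.63 in liver and 8.66 to 9.43 in hypothalamus.

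Metal carriers held 4 of 25 members at least 4-fold higher in liver and 3 lower. Slc40a1, the iron exporter ferroportin, stood at 14.80 to 15.30 in liver and 9.36 to 11.01 in hypothalamus, and Slc31a1, the copper importer CTR1, at 16.59 to 16.78 in liver and 12.48 to 12.91 in hypothalamus. The zinc importer Slc39a4 was higher in liver by 5.93 ± 1.05. Its relatives Slc39a12, Slc39a6 and Slc39a10 were lower in liver, with differences of -6.56 ± 0.24, -4.33 ± 0.36 and -3.95 ± 0.77, so that zinc importers of the Slc39 family lay at both ends of the class. Slc39a12 has more than 1 probe, and their mean gave -4.53.

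Organic ion and bile acid carriers held 5 of 21 members at least 4-fold higher in liver and 1 lower. That one, Slc22a17, had the most negative difference of all members. It encodes a receptor for the iron-binding protein lipocalin 2 and was at 9.96 in the congenic 2-choice, 9.57 in the congenic chow, 9.51 in the B6 2-choice and 8.36 in the B6 chow liver pool, against 17.98, 17.79, 17.95 and 18.16 in the matching hypothalamus pools. Slc17a2, an anion transporter of liver and kidney, stood at 15.62 to 16.03 in liver and 8.08 to 8.54 in hypothalamus. Slc22a18 and Slc22a30 of the organic ion family were higher in liver by 6.83 ± 0.83 and 6.39 ± 1.10, and Slc47a1, the MATE1 exporter of organic cations, by 6.00 ± 1.12. Slc10a2, the ileal sodium-bile acid carrier that cholangiocytes also use, was at 12.18 to 13.64 in liver and 6.84 to 10.84 in hypothalamus and did not reach 4-fold in every pair.

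The remaining classes were smaller or more even. Of 25 inorganic ion carriers, 1 was at least 4-fold higher in liver (Slc26a1, a sulfate exchanger, by 4.25 ± 0.44) and 3 were lower. These were Slc4a10, a neuronal sodium bicarbonate transporter (-5.41 ± 0.55), Slc12a5, the neuronal chloride exporter KCC2 (-3.29 ± 0.96), and Slc12a2, the chloride importer NKCC1 (-2.80 ± 0.43). Slc27a2, a fatty acid transporter and very long chain acyl-CoA synthetase, was the only fatty acid member of 3 past the threshold, at 19.45 to 20.18 in liver and 12.48 to 12.93 in hypothalamus. Of 14 vitamin, choline and haem carriers, 3 were higher in liver and 0 lower, among them the ascorbate carrier Slc23a1 (4.90 ± 0.46), the lysosomal Slc46a3 (3.78 ± 0.30) and Slc44a3 of the choline carrier family (3.04 ± 0.06). Of 9 nucleoside and nucleotide sugar carriers, 0 were higher and 2 were lower. These were Slc29a4, the plasma membrane monoamine transporter (-4.75 ± 0.44, or -2.43 as the mean of its probes), and Slc29a2, an equilibrative nucleoside transporter (-2.90 ± 0.31). Slc16a12, counted with 11 carriers of other substrates, was higher in liver by 4.28 ± 0.61, and Slc9a3r1, a scaffold protein named after a sodium-proton exchanger, by 3.38 ± 0.20. None of the 12 monocarboxylate, sulfate and citrate carriers was 4-fold apart in all pairs, and the range of this class ran from -1.14 for Slc16a6 to 1.52 for Slc13a2.

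The diet comparison asked how members stood after 24 h of choice relative to chow. In liver, no member passed the limma test at an adjusted p under 0.05, and 0% of all 19807 probes tested did. The lowest adjusted p of the 177 members was 0.36, and 16 members (9.04%) had an unadjusted p under 0.05, against 8.74% of all probes. By size alone, 10 members (5.65%) were at least 1.5-fold higher on the 2-choice diet with the same sign in both strains, against 12.5% of all probes, and 24 members (13.6%) were at least 1.5-fold lower, against 12.1%. The median member difference was -0.08 and that of all probes -0.01.

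Slc10a2 had 13.18 in congenic and 13.64 in B6 pools on the 2-choice diet, against 12.18 in congenic and 12.68 in B6 pools on chow. Both strains were higher on the 2-choice diet by nearly the same amount, and the limma difference was 0.98 ± 0.53 (adjusted p 0.632). In the fit on the 4 liver arrays alone, Slc10a2 passed at an adjusted p of 0.0157, and Slc1a2 was the only other member to pass there. Slc27a2, the fatty acid carrier, had 20.07 in congenic and 20.18 in B6 pools on the 2-choice diet, against 19.45 in congenic and 19.64 in B6 pools on chow. The difference of 0.58 ± 0.15 (adjusted p 0.36) had the lowest p of the 177 members and lay just under 1.5-fold. Slc16a6, which exports ketone bodies from hepatocytes in zebrafish, had 13.12 in congenic and 12.46 in B6 pools on the 2-choice diet, against 11.82 in congenic and 11.93 in B6 pools on chow, a difference of 0.92 ± 0.34 (adjusted p 0.492). Slc39a1, a zinc importer, differed by 0.70 ± 0.24 (adjusted p 0.464), and Slc25a37, the iron carrier mitoferrin 1, by 0.76 ± 0.69 (adjusted p 0.801), most of it in the congenic pools.

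The lower side in liver held carriers of several classes. Slc25a40, a mitochondrial carrier, had 9.45 in congenic and 8.66 in B6 pools on the 2-choice diet, against 10.91 in congenic and 10.42 in B6 pools on chow, a difference of -1.61 ± 0.61 (adjusted p 0.517). Slc26a10 differed by -1.41 ± 0.60 (adjusted p 0.566), and the potassium-chloride cotransporter Slc12a7 by -1.28 ± 0.67 (adjusted p 0.626). Of 9 monocarboxylate, sulfate and citrate carriers tested, 4 were lower and 1 (Slc16a6) higher by size, against 12.1% and 12.5% of all probes. The lower ones were Slc16a4 (-1.40 ± 0.64, adjusted p 0.581), Slc16a9, a carnitine transporter (-1.28 ± 0.77, adjusted p 0.672), Slc16a1, the lactate and ketone carrier MCT1 (-1.06 ± 0.63, adjusted p 0.669), and Slc16a8, whose 2-choice mean was under the filter level. Slc16a1 had 9.70 in congenic and 9.60 in B6 pools on the 2-choice diet, against 10.68 in congenic and 10.74 in B6 pools on chow. The pools did not overlap between diets. Slc3a2, the heavy chain shared by several amino acid exchangers, and the taurine transporter Slc6a6 were also on the lower side, at -0.85 ± 0.27 (adjusted p 0.427) and -0.88 ± 0.30 (adjusted p 0.464). Slc50a1, a sugar carrier, differed by -1.33 ± 0.61 (adjusted p 0.586), chiefly in the congenic pools.

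A pair of lower members is known from phagocytes. Slc11a1, the metal transporter NRAMP1 of macrophage phagosomes, had 9.14 in congenic and 9.84 in B6 pools on the 2-choice diet, against 11.23 in congenic and 10.58 in B6 pools on chow, and Slc15a3, a lysosomal peptide and histidine carrier of immune cells, had 8.58 in congenic and 9.92 in B6 pools on the 2-choice diet, against 10.29 in congenic and 11.09 in B6 pools on chow. Their differences were -1.41 ± 0.70 (adjusted p 0.607) and -1.44 ± 0.73 (adjusted p 0.618). All 4 measured genes of the macrophage list were lower on the 2-choice diet in liver on average. The differences were -1.86 for C1qb, -1.25 for Adgre1, -1.13 for C1qa and -1.04 for C1qc. Adgre1 was lower in the congenic pools only (9.58 in the B6 2-choice pool, against 9.44 in the B6 chow pool). The list's summed level ran from 15.38 to 15.73 in 2-choice and 16.76 to 16.83 in chow pools. The part of these genes in the result was not tested.

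**Figure D3:**
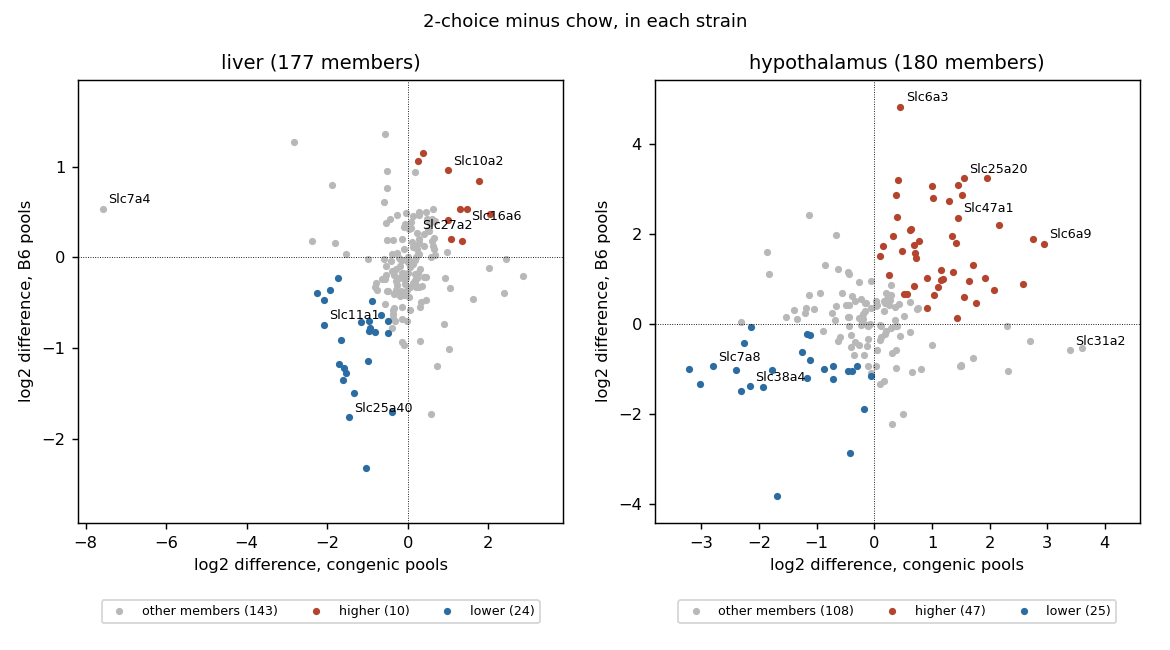
Log2 difference between 2-choice and chow in congenic pools (x axis) and in B6 pools (y axis) for members tested in liver (left) and hypothalamus (right); each point is 1 gene. Red and blue points were at least 1.5-fold apart on average with the same sign in both strains, 10 higher and 24 lower in liver, 47 higher and 25 lower in hypothalamus; Slc7a4 lies far left in liver through 1 congenic chow array.

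In the hypothalamus, 2 of 180 members passed the limma test, while 0.49% of all probes did (97 probes, 70 higher and 27 lower). By size, 47 members (26.1%) were at least 1.5-fold higher on the 2-choice diet with the same sign in both strains, against 21.8% of all probes, and 25 (13.9%) were at least 1.5-fold lower, against 16.6%. An unadjusted p under 0.05 was reached by 48 members (26.7%) and 20.9% of all probes. The median difference was 0.15 over members and 0.07 over all probes. Scaling sets this baseline: with median centring the median of all probes was 0.79, with the authors' values as deposited 2.05, and with quantile normalization over all 8 arrays 0.06, and the direction of changes is given relative to a median of 0.07. The counts moved with it: with median centring 84 members were called and 113 were higher by size, where 38.5% and 58.2% of all probes were. On the authors' values 144 were called, 159 were higher and 3 were lower, where 77.9%, 87.4% and 1.19% of all probes were.

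Slc47a1, the MATE1 organic cation exporter, was brighter in the 2-choice than in the chow pools. It had 10.57 in congenic and 10.69 in B6 pools on the 2-choice diet, against 9.12 in congenic and 8.32 in B6 pools on chow, with no overlap, and a difference of 1.91 ± 0.30 (adjusted p 0.0443). Its chow mean lay under the filter level, so that it was tested only through its 2-choice pools. Slc38a4, the neutral amino acid carrier that was bright in liver, was dimmer in the 2-choice than in the chow pools. It had 9.43 in congenic and 9.77 in B6 pools on the 2-choice diet, against 11.59 in congenic and 11.15 in B6 pools on chow, again with no overlap, and a difference of -1.77 ± 0.23 (adjusted p 0.0218). Both calls were lost in the fit on the 4 hypothalamus arrays alone (adjusted p 0.217 for Slc47a1 and 0.262 for Slc38a4) and without an intensity trend (0.182 and 0.188). Slc38a4 was at -0.14, adjusted p 0.605, on the authors' values without further normalization. Slc47a1 also lost its call without the congenic liver diet pair (adjusted p 0.119) and without the B6 liver diet pair (0.106), and it was not tested with the filter at the 60th percentile. Quantile normalization over all 8 arrays instead called 4 members, Slc25a20 and Slc25a28 besides these.

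**Figure D4:**
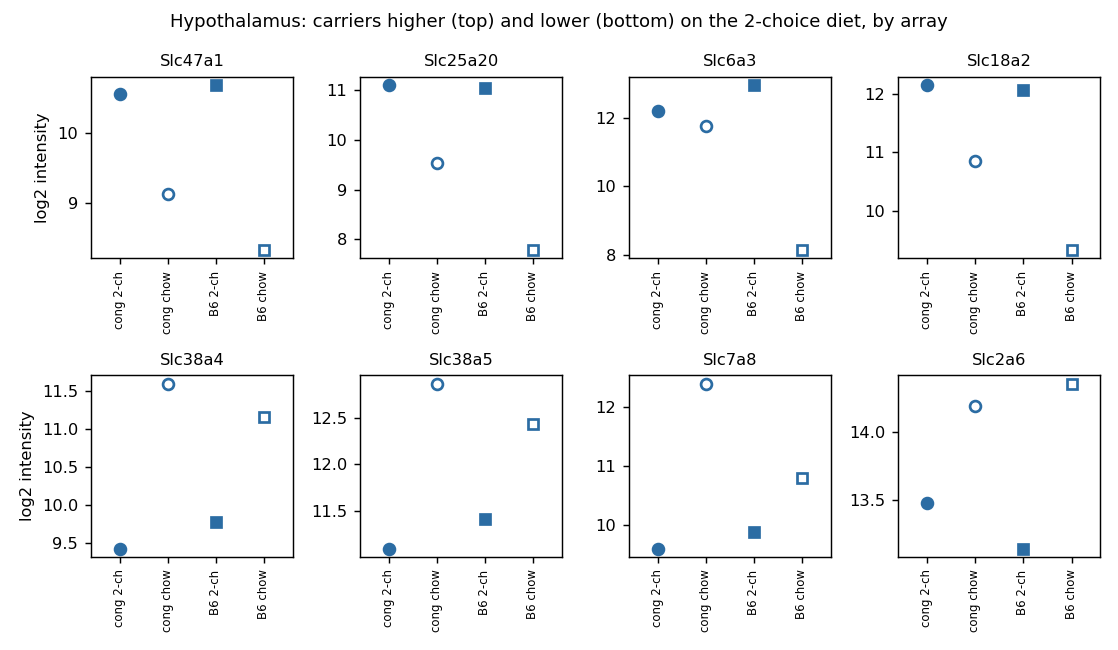
Log2 intensity (y axis, a separate scale for each gene) of 8 members in the 4 hypothalamus arrays (x axis; cong congenic, 2-ch 2-choice). Filled symbols are 2-choice and open symbols chow, circles congenic and squares B6; the top genes are higher in both 2-choice pools, with the B6 chow pool lowest, and the bottom genes are lower in both, as Slc38a4 at 9.43 and 9.77 in 2-choice pools against 11.59 and 11.15 in chow pools.

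Of 27 mitochondrial carriers tested, 13 were on the higher side and 3 on the lower, where the shares over all probes were 21.8% and 16.6%. Of the 13, 7 had a chow mean under the filter level and were tested only through the 2-choice pools, so the count is a description; 6 had both means at or above it. Slc25a20, the carnitine-acylcarnitine carrier, had 11.09 in congenic and 11.04 in B6 pools on the 2-choice diet, against 9.53 in congenic and 7.78 in B6 pools on chow. Its difference was 2.40 ± 0.40 (adjusted p 0.0503), its B6 chow pool was the lowest of the 4, and its chow mean lay under the filter level, so that it was tested only through its 2-choice pools. Slc25a13 (citrin) differed by 1.30 ± 0.24 (adjusted p 0.054), while its sister Slc25a12 was not on either side. Slc25a37 was lower in both strains with a 2-choice mean under the filter level, and Slc25a45 differed by -1.11 ± 0.64 (adjusted p 0.36), almost all of it in the congenic pools.

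Among neurotransmitter carriers, 5 of 11 tested were higher on the 2-choice diet by size and 0 lower, where 21.8% and 16.6% of all probes were. Of the 5, 4 had both means at or above the filter level, and none passed the test. Slc6a3, the dopamine transporter, had 12.22 in congenic and 12.96 in B6 pools on the 2-choice diet, against 11.77 in congenic and 8.13 in B6 pools on chow. The B6 chow pool alone was low, and the difference of 2.64 ± 0.96 (adjusted p 0.174) rested on it. Slc18a2, the vesicular monoamine transporter VMAT2, had 12.15 in congenic and 12.06 in B6 pools on the 2-choice diet, against 10.85 in congenic and 9.33 in B6 pools on chow, with the same pool lowest, and differed by 2.02 ± 0.74 (adjusted p 0.176). Slc6a9, the glycine transporter GLYT1, had 12.01 in congenic and 12.10 in B6 pools on the 2-choice diet, against 9.08 in congenic and 10.31 in B6 pools on chow, was lowest in the congenic chow pool, and differed by 2.36 ± 0.49 (adjusted p 0.0705). Slc1a3, the astrocytic glutamate carrier, differed by 1.09 ± 0.63 (adjusted p 0.356), and by a similar amount in each strain (1.19 in congenic and 0.99 in B6 pools).

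Amino acid carriers stood on both sides by size, 9 of 28 higher and 5 lower, where 21.8% and 16.6% of all probes were. Of these, 5 and 4 had both means at or above the filter level. On the higher side, Slc6a7, the brain proline transporter, differed by 1.90 ± 0.67 (adjusted p 0.169), Slc6a20a, an imino acid transporter, by 1.81 ± 0.78 (adjusted p 0.23), Slc7a6 of the system y+L exchangers by 1.48 ± 0.65 (adjusted p 0.239), and Slc7a5, the LAT1 light chain of the blood-brain barrier, by 1.37 ± 0.67 (adjusted p 0.28). On the lower side, Slc7a8, the LAT2 light chain, had 9.60 in congenic and 9.88 in B6 pools on the 2-choice diet, against 12.40 in congenic and 10.81 in B6 pools on chow, a difference of -1.86 ± 0.70 (adjusted p 0.181), and Slc38a5, a glutamine carrier, had 11.10 in congenic and 11.41 in B6 pools on the 2-choice diet, against 12.87 in congenic and 12.43 in B6 pools on chow, a difference of -1.40 ± 0.60 (adjusted p 0.231). LAT1 and LAT2, alternative partners of the same heavy chain, thus stood on opposite sides, and neither passed the test.

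Sugar carriers were divided as well, with 3 of 13 higher and 4 lower, where 21.8% and 16.6% of all probes were. Of these, 1 and 3 had both means at or above the filter level. Slc2a1 (GLUT1) differed by 1.09 ± 0.53 (adjusted p 0.281) and Slc2a3 (GLUT3) by 2.32 ± 0.62 (adjusted p 0.111), its chow mean under the filter level. Slc2a6 differed by -0.98 ± 0.41 (adjusted p 0.218) and Slc2a10 by -0.96 ± 0.81 (adjusted p 0.522). Among metal and ion carriers, Slc30a9, a zinc transporter, had 12.98 in congenic and 13.26 in B6 pools on the 2-choice diet, against 11.26 in congenic and 11.94 in B6 pools on chow and differed by 1.52 ± 0.31 (adjusted p 0.0675), and Slc40a1 (ferroportin) differed by 1.26 ± 0.26 (adjusted p 0.0705). The sodium-calcium-potassium exchangers Slc24a3 and Slc24a2 had opposite signs, at 2.20 ± 0.67 (adjusted p 0.132) and -1.18 ± 0.60 (adjusted p 0.302), and the anion exchanger Slc26a6 stood at -1.33 ± 0.71 (adjusted p 0.317). On the authors' values without further normalization, Slc38a5, Slc26a6, Slc24a2, Slc25a45, Slc2a6 and Slc2a10 changed sign, so the lower side of this comparison depends on the scaling.

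Marker genes of other cell types were set beside this comparison. Of 5 measured pituitary genes, Gh, Cga and Prl had differences of 4.77, 3.93 and 3.13 between 2-choice and chow hypothalamus, Tshb 0.21 and Lhb -0.44. The 5 pituitary genes summed to 13.93 and 15.27 in congenic and B6 2-choice pools and 11.70 and 12.09 in congenic and B6 chow pools. Of 4 measured hepatocyte genes, Alb, Apoa1 and Ttr (which choroid plexus also makes) had differences of 1.60, 1.08 and 2.56 and Tat -0.34. Alb was highest in the congenic 2-choice pool (11.42), and Apoa1 was higher on the 2-choice diet in congenic pools only (9.13 in the B6 2-choice pool, against 9.24 in the B6 chow pool). These 4 summed to 13.16 and 12.56 in congenic and B6 2-choice pools and 10.66 and 11.79 in congenic and B6 chow pools. Of 5 endothelial genes, Tek, Pecam1, Kdr, Cdh5 and Cldn5 had differences of 2.04, 1.38, 1.23, 1.17 and 0.14, and the list summed to 14.33 and 14.42 in congenic and B6 2-choice pools and 13.84 and 14.19 in congenic and B6 chow pools. Of 5 choroid plexus genes, Folr1, Otx2 and Clic6 had differences of 2.30, 1.62 and 1.02, and Kl and Aqp1 -0.60 and -0.81. Clic6 was higher in congenic pools only (10.53 in the B6 2-choice pool, against 10.93 in the B6 chow pool). Kl was lower in congenic pools only (10.31 against 10.29 in the same B6 pools). The choroid plexus list summed to 12.34 and 12.25 in congenic and B6 2-choice pools and 12.17 and 12.03 in congenic and B6 chow pools. Folr1, Aqp1, Cdh5 and Tat had a hypothalamus mean under the filter level. Of the 34 members high in liver, 21 were tested in the hypothalamus, 6 were on the higher side and 3 on the lower, with a median of 0.22, where the shares over all probes were 21.8% and 16.6%. The part of any of these cell types in the results was not tested.

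The strain comparison set congenic against B6 pools within each scaled pair. In liver, 0% of probes and no member passed the limma test, and the lowest adjusted p of a member was 0.493. By size, 14 of 177 members (7.91%) were at least 1.5-fold higher in congenic liver with the same sign on both diets, against 9.16% of all probes, and 18 (10.2%) were lower, against 13.3%. An unadjusted p under 0.05 was reached by 9 members (5.08%), against 6.65% of all probes.

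Slc39a10, a zinc importer, had the lowest p of a member in liver. It had 10.06 on 2-choice and 9.39 on chow in congenic pools, against 11.14 and 11.04 in B6 pools, with no overlap, and a difference of -1.37 ± 0.30 (adjusted p 0.493). Slc37a1, a glucose 6-phosphate antiporter encoded on chromosome 17, had 9.15 on 2-choice and 9.20 on chow in congenic pools, against 10.56 and 10.95 in B6 pools, again with no overlap and a difference of -1.58 ± 0.61 (adjusted p 0.724). Slc29a3, a lysosomal nucleoside transporter, had 8.37 on 2-choice and 8.74 on chow in congenic pools, against 10.36 and 10.16 in B6 pools, a difference of -1.70 ± 0.59 (adjusted p 0.693), and its congenic mean lay under the filter level. Slc12a9, an orphan of the cation-chloride family, differed by -1.53 ± 0.57 (adjusted p 0.706), and Slc39a1 by -0.61 ± 0.24 (adjusted p 0.724). Slc16a11, Slc17a8 (VGLUT3), Slc23a3 and Slc15a3 were at -1.16 to -1.07, and Slc18a3, the vesicular acetylcholine carrier, at -0.65, with the Slc17a8 and Slc16a11 differences almost wholly in the chow pools. Slc9a3r1, the scaffold protein, had 15.79 on 2-choice and 15.75 on chow in congenic pools, against 16.53 and 16.22 in B6 pools and was the only member to pass in the fit on the 4 liver arrays alone (adjusted p 0.0416, against 0.654 in the fit of all 8 arrays).

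On the higher side in congenic liver, Slc2a1 (GLUT1) had 10.32 on 2-choice and 10.90 on chow in congenic pools, against 9.77 and 9.16 in B6 pools and a difference of 1.14 ± 0.53 (adjusted p 0.759). The exchangers Slc24a1 and Slc24a2 differed by 1.10 ± 0.59 (adjusted p 0.816) and 0.88 ± 0.59 (adjusted p 0.858), Slc16a4 by 1.03 ± 0.64 (adjusted p 0.845) and the vesicular monoamine carrier Slc18a1 by 0.86 ± 0.63 (adjusted p 0.875). Slc26a10, Slc25a40 and Slc44a3 were higher by 0.61 to 0.75. Slc7a4, a relative of the cationic amino acid carriers, had 7.78 on 2-choice and 15.36 on chow in congenic pools, against 9.34 and 8.80 in B6 pools. The congenic chow pool was alone at this level, the other strain pair had the opposite sign, and the cause was not tested.

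**Figure D5:**
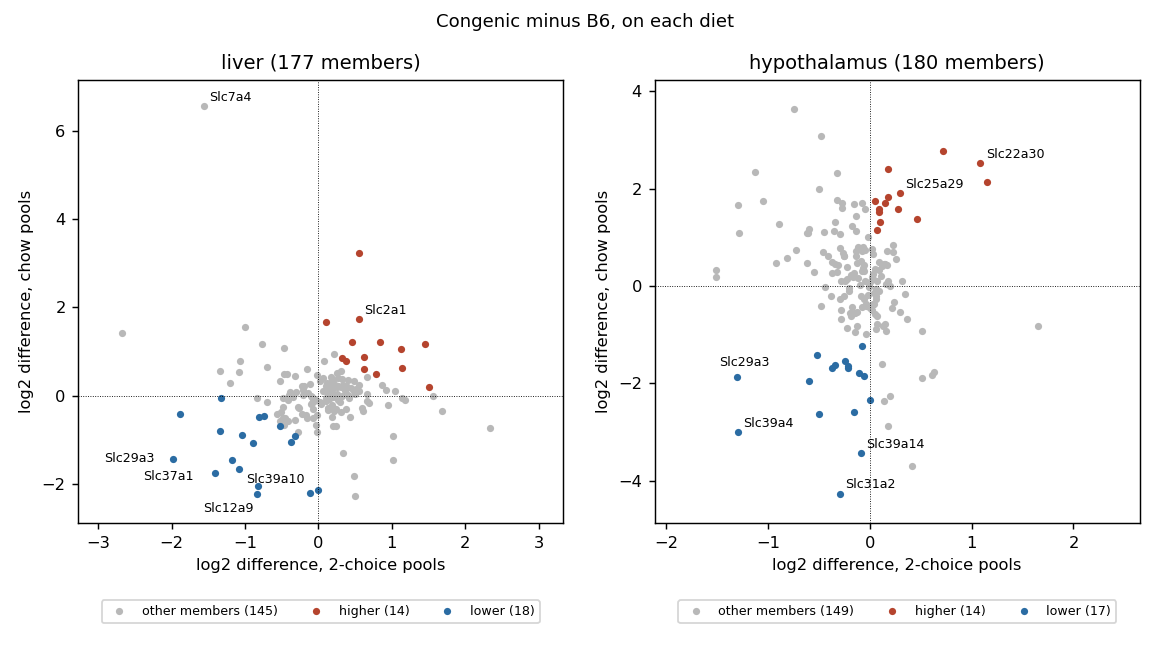
Log2 difference between congenic and B6 pools on the 2-choice diet (x axis) and on chow (y axis) for members tested in liver (left) and hypothalamus (right); each point is 1 gene. Red and blue points were at least 1.5-fold apart on average with the same sign on both diets, 14 higher and 18 lower in liver, 14 higher and 17 lower in hypothalamus; in hypothalamus the points spread along the chow axis, where the median absolute difference was 0.67, against 0.18 on the 2-choice axis.

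In the hypothalamus, 0% of probes and no member passed, with a lowest adjusted p of 0.823 among members, and 9 members (5%) had an unadjusted p under 0.05, against 4.96% of all probes. The size rule found 14 of 180 members (7.78%) higher in congenic hypothalamus, against 10.2% of all probes, and 17 (9.44%) lower, against 10.1%. Signs on the 2 diets matched for 44.4% of members, against 49.5% of all probes. The median absolute member difference was 0.18 on the 2-choice diet and 0.67 on chow, the pair that stood apart. Leaving out either pair left 1 hypothalamus array per strain, and the spread then came from the liver arrays alone. No call is read from such a fit.

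The largest values came from the chow pair. Slc31a2, a copper transporter relative, had 10.98 on 2-choice and 7.58 on chow in congenic pools, against 11.27 and 11.85 in B6 pools, a mean difference of -2.28 ± 0.84 (adjusted p 0.823), and -0.29 on the 2-choice pair alone. Slc39a14, the zinc and manganese importer ZIP14, had 11.30 on 2-choice and 8.98 on chow in congenic pools, against 11.39 and 12.42 in B6 pools, a mean difference of -1.76 ± 0.64 (adjusted p 0.823), and -0.09 on the 2-choice pair alone. Slc25a29, a mitochondrial carrier of basic amino acids, was 1.10 ± 0.56 (adjusted p 0.823) over both diets and 0.29 on the 2-choice pair. Of the other members named by size, Slc25a27, Slc13a1, Slc38a7, Slc25a20, Slc25a38, Slc18a2 and Slc38a9 were higher by 0.70 to 1.00 on average and by 0.05 to 0.27 on the 2-choice pair. Slc22a12, Slc22a8, Slc66a1, Slc7a6, Slc17a1 and Slc25a44 averaged -1.38 to -0.95 and were at -0.52 to -0.05 on the 2-choice pair.

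Slc39a4, Slc22a30 and Slc29a3 had the same sign on both diets in the hypothalamus, but none passed the test, and each reached the filter level only through the strain in which it was brighter, so their values are a description. Slc39a4, the zinc importer, had 8.56 on 2-choice and 8.74 on chow in congenic pools, against 9.85 and 11.75 in B6 pools and a difference of -2.15 ± 0.40 (adjusted p 0.823). Slc22a30 had 10.01 on 2-choice and 11.34 on chow in congenic pools, against 8.92 and 8.82 in B6 pools and a difference of 1.80 ± 0.35 (adjusted p 0.823). Slc29a3 had 8.42 on 2-choice and 8.88 on chow in congenic pools, against 9.72 and 10.75 in B6 pools, a difference of -1.59 ± 0.63 (adjusted p 0.823), and was below its B6 pool in all 4 strain pairs of both tissues.

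Over both tissues together, 137 members were tested. For diet, 0% of the 15466 probes and no member passed, the lowest member adjusted p was 0.431, and 18 members had an unadjusted p under 0.05 (13.1%, against 9.64% of all probes). In all 4 pairs with the same sign and at least 1.5-fold on average stood 16 members (11.7%, against 10.2% of all probes), 7 higher and 9 lower on the 2-choice diet. Slc7a6 was among the higher ones, with differences of 1.46 and 0.53 in congenic and B6 liver and 1.93 and 1.04 in congenic and B6 hypothalamus, and Slc26a10 among the lower, with differences of -1.54 and -1.27 in congenic and B6 liver and -2.31 and -1.49 in congenic and B6 hypothalamus. Slc15a3, Slc3a2, Slc6a6, Slc19a1 (the reduced folate carrier) and Slc38a4 were also lower in all 4 pairs, although Slc38a4 was at -0.02 in B6 liver. Hypothalamus signs in this paragraph are relative to the scaling. The median diet difference of all probes there was 0.07, against 2.05 on the authors' values. Slc7a6 in liver, and Slc26a10 and Slc15a3 in hypothalamus, had 1 diet mean under the filter level. The difference of the diet effect between tissues was called for 0.0647% of probes (10 probes) and for no member, with a lowest member adjusted p of 0.151 for Slc39a1, and 22 members had an unadjusted p under 0.05 (16.1%, against 15.7% of all probes). Slc39a1 had differences of 1.00 and 0.41 in congenic and B6 liver and -0.87 and -1.004 in congenic and B6 hypothalamus, so on this scaling its sign was opposite in the tissues. The mitochondrial phosphate carrier Slc25a3 likewise had differences of -0.37 and -0.62 in congenic and B6 liver and 0.51 and 0.67 in congenic and B6 hypothalamus, with an adjusted p of 0.159.

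For strain over both tissues, 0% of probes and no member passed (lowest member adjusted p 0.863), and 9 members had an unadjusted p under 0.05 (6.57%, against 4.27% of all probes). With the same sign in all 4 pairs and at least 1.5-fold on average stood 10 members (7.3%, against 5.44% of all probes), 4 higher and 6 lower in congenic pools. Slc29a3 had a mean of -1.65 ± 0.40 (adjusted p 0.864), made up of -1.99 and -1.42 on 2-choice and chow in liver and -1.30 and -1.87 in hypothalamus. Its congenic mean lay under the filter level in both tissues, so that it was tested only through its B6 pools and its values are a description. Slc39a10 was lower in all 4 pairs too, although its hypothalamus pairs were at -0.02 and -0.18. The strain effect differed between tissues for 0% of probes and no member, with a lowest member adjusted p of 0.796 and 5 members at an unadjusted p under 0.05 (3.65%, against 5.41% of all probes).

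Chromosome 17 carries 10 members, of which 10 were tested in liver and 8 in hypothalamus. In liver, 2 of them were at least 1.5-fold apart between strains with the same sign on both diets: Slc37a1, lower in congenic pools, and Slc25a27 (the uncoupling protein relative UCP4), higher with a B6 mean under the filter level (0.89 ± 0.71, adjusted p 0.89). Over all probes in liver, 9.16% were higher and 13.3% lower. In hypothalamus Slc25a27 was the only one of the 8, where 10.2% of all probes were higher and 10.1% lower. In hypothalamus Slc37a1 had 11.18 on 2-choice and 10.52 on chow in congenic pools, against 11.06 and 12.12 in B6 pools, with opposite signs on the 2 diets. Slc25a23, a calcium-regulated ATP-magnesium carrier, and Slc39a7, a zinc transporter of the endoplasmic reticulum, were bright in all arrays and differed by -0.04 ± 0.18 (adjusted p 0.99) and 0.04 ± 0.16 (adjusted p 0.988) in liver. Slc3a1, the heavy chain of the cystine carrier, differed by 0.30 ± 0.23 (adjusted p 0.888) in liver, and Slc22a2, Slc22a7, Slc30a6, Slc44a4 and Slc9a3r2 by -0.09 to 0.37. The labels give no limits for the donor segment, so which of these genes lie inside it was not determined.

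Transporter families outside the rule were counted for context. Of the Slco organic anion carriers, 9 were tested in liver and 7 in hypothalamus; of the ATP-driven Abc transporters, 29 and 24; of the Aqp water channels, 8 and 5. None of them passed the limma test for diet or strain in either tissue. By size, for diet in hypothalamus, 3 Slco, 7 Abc and 0 Aqp genes were higher and 0, 3 and 0 lower, where 21.8% and 16.6% of all probes were. For diet in liver, 0 Slco, 2 Abc and 1 Aqp genes were higher and 1, 3 and 2 lower, where 12.5% and 12.1% of all probes were. For strain in liver, 0, 2 and 0 were higher in congenic pools and 0, 1 and 1 lower, where 9.16% and 13.3% of all probes were. For strain in hypothalamus, 1 of each family was higher and 1, 5 and 1 lower, where 10.2% and 10.1% of all probes were.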

How the data were processed

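RNA pools of 6 male mice were hybridized to single-channel chemiluminescent arrays, 1 array per tissue, strain and diet, per the labels' protocols. The deposited table holds linear intensity for 33012 probes; how the authors normalized it is not stated, and array medians fell into pairs of equal value. Of 14658 annotated probes, 14411 had 1 gene symbol and 247 several. Intensities were log2 transformed and brought to 1 distribution per tissue (quantile normalization of its 4 arrays), and probes with a mean at or above the 40th percentile were tested (19807 per tissue). A gene was represented by its brightest probe.

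Diet and strain within each tissue were fitted with limma 3.58.1 (R 4.3.3) on all 8 arrays, with 2 residual degrees of freedom and an intensity trend in the empirical Bayes step. Effects over both tissues used the 4 pairs as blocks (3 residual degrees of freedom). P-values were Benjamini-Hochberg adjusted over all probes tested and called under 0.05. With 1 pool per group, they do not measure the spread between like pools. In the fits within a tissue, the error comes from how far the diet difference varied between strains, in both tissues together. Over both tissues, it comes from how far the differences of the 4 pairs varied. Values after ± are standard errors for diet and strain, and the SD of 4 pairs for tissue. The fit was tested on simulated data. Named genes were the 8 higher and 8 lower with the largest change (at least 1.5-fold, same sign in both pairs, both group means at the filter level), up to 3 each way per substrate class for tissue, preset liver and brain transporters, and members on chromosome 17; a few others were added after their values were seen. Members, lists and tests were chosen with earlier results of these data known. Groups came from the strain, tissue and diet fields. The number of per-sample columns not used was 0. Alternatives changed the scaling, filter, probe rule, fit and fold, and left out each pair.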

Additional observations from a re-analysis of the deposited data

How the results depend on the processing

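With 1 pool per group, the number of arrays limits every result. Where a count below has no share over all probes beside it, nothing about the members is read from it. Scaling mattered most for diet in hypothalamus: the members called were 84 with median centring and 144 on the authors' values, against 2, and those higher on the 2-choice diet by size were 113 and 159, with 3 lower on the authors' values. The difference of the diet effect between tissues was then called for 43 and 102 members. The median diet difference of all probes in hypothalamus was 0.79 and 2.05 on these scalings. On the authors' values Slc38a5 (0.80), Slc26a6 (0.083), Slc24a2 (0.60), Slc25a45 (0.034), Slc2a6 (1.24) and Slc2a10 (0.64) reversed. Members called for diet in hypothalamus numbered 4 with quantile normalization over 8 arrays, 1 with the filter at the 60th percentile, 6 on the 4 arrays alone and 0 without a trend; 2 were called for diet and 1 for strain in liver on the 4 arrays alone. With the filter at the 60th percentile, higher and lower members were 28 and 13 for diet in hypothalamus, 5 and 7 for strain in hypothalamus and 8 and 11 for strain in liver, and 3 were higher for diet in liver; at the 20th percentile, 31 were lower for strain in hypothalamus. Requiring 1.5-fold in each pair left 15 lower for diet in hypothalamus, 2 higher for diet in liver, 3 and 3 for strain in hypothalamus, and 6 and 9 for strain in liver. Requiring 2-fold left 14 lower for diet in hypothalamus, 2 and 14 for diet in liver, 6 and 9 for strain in hypothalamus, and 5 and 10 for strain in liver; for tissue, 2-fold gave 56 higher in liver. Requiring both group means at the filter level, chosen after seeing the data, left 28 and 15 for diet in hypothalamus, 4 higher for diet in liver, 8 and 10 for strain in hypothalamus and 11 lower for strain in liver.

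Leaving out each pair in turn gave, for diet in hypothalamus, 1 to 26 called, 47 to 61 higher and 25 to 40 lower. For diet in liver it gave 0 to 2 called, 10 to 27 higher and 24 to 33 lower. For strain in hypothalamus it gave 0 to 26 called, 6 to 58 higher and 17 to 40 lower, the highest without the 2-choice pair. For strain in liver it gave 0 to 1 called, 14 to 25 higher and 18 to 26 lower. Diet by tissue gave 0 to 19 called, strain by tissue 0 to 13, and both effects over the 2 tissues 0 to 0. Tissue counts ran from 34 to 40 higher and 20 to 24 lower in liver. Slc7a4, at 2.50 between strains in liver, reversed to -1.56 without the chow pair and was at 6.56 without the 2-choice pair. Fewer probes and stricter rules change the counts by construction. With a pair left out, the same-sign rule had only 1 pair to meet in the comparison that lost it. The 4-fold rule for tissue had 1 pair fewer to meet. Higher counts there are thus partly built in, and other causes were not tested.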

Other observations

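The members high in one tissue were also set against the diet comparison of that tissue. Of the 34 members at least 4-fold higher in liver in all 4 pairs, 0 were at least 1.5-fold higher and 1 was lower on the 2-choice diet in liver, with a median of -0.10, where 12.5% and 12.1% of all probes were. Of the 20 members at least 4-fold lower in liver, all tested in hypothalamus, 2 were higher and 2 were lower on the 2-choice diet there, with a median of 0.01, where 21.8% and 16.6% of all probes were. Between strains, 0 of these 20 were at least 1.5-fold higher or lower in congenic hypothalamus with the same sign on both diets, where 10.2% and 10.1% of all probes were. The 34 and the 20 were chosen on these same arrays, for at least 4-fold in every matched pair. That choice favours bright probes with steady values, while all probes reach down to the filter level. The gap is thus partly built in, and nothing is read from it.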
